A study of Mus musculus with 16 samples.

Results

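The regions described here are 400 bins of 500 bp at which the Myc libraries of LPS-treated mouse B cells were enriched over IgG and the Myc library of ConA-treated T cells held the fewest reads. Bins were laid over chromosomes 1 to 19 of mouse build mm8, each read was placed by its midpoint, and levels are RPM, reads scaled to a fixed number of reads on these chromosomes. A bin was kept if it held at least 8 reads summed over the 2 B4 Myc libraries, if the pooled Myc RPM was at least 4 times the pooled B4 IgG RPM plus 0.1, and if the B4 Pol2 library had at least 5 reads. This kept 2727 bins. The 400 with the fewest T4 Myc reads, ties going to more B4 Myc reads and then to position, are called members (14.7% of the kept bins, 95% interval 13.4 to 16.1%), and the other 2327 are called other kept bins.

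The series comprised 16 ChIP-seq libraries from mouse spleen: 6 labelled Myc, 2 labelled Pol2 and 8 labelled IgG. T cells described as resting received concanavalin A (ConA) at 7.5 µg/ml for 4 h (T4; 1 Myc and 1 IgG library) or 14 h (T14; 1 library labelled Myc and 1 labelled IgG). B cells described as quiescent received lipopolysaccharide (LPS) at 25 µg/ml together with the compound 10058-F4 for 4 h (1 Myc, 1 Pol2 and 2 IgG libraries), LPS alone for 4 h (B4; 2 Myc, 1 Pol2 and 3 IgG libraries) or neither (B0; 1 Myc and 1 IgG library). An antibody to EGFP was used for Myc, and for Pol2 Abcam ab5408, with a non-specific IgG as control. The labels give no genotype, strain or age, no dose of 10058-F4, and no statement that libraries came from separate animals, so replicate spread may be technical. The titles of the B4 Pol2 library and of B4 IgG replicate 2 carry the mark wt, which is not explained. For the 14 h pair, titles and deposited file names give opposite antibodies, and each library is called here by its title label.

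Myc is a transcription factor that binds DNA as a dimer with Max, mostly at promoters and enhancers that are already open and hold RNA polymerase II (Pol2), the enzyme that transcribes protein-coding genes. LPS, a bacterial cell wall component, activates B cells through Toll-like receptor 4, and ConA, a plant lectin, activates T cells by cross-linking surface glycoproteins that include the T cell receptor. Both treatments induce Myc as lymphocytes leave quiescence. 10058-F4 is a small molecule known to disrupt the pairing of Myc with Max.

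Libraries held 1278471 to 7433203 reads on chromosomes 1 to 19. Read lengths were 25 bases in the T cell libraries, 24 to 30 in B4 Myc replicate 1 and B4 IgG replicate 1, and 45 in all others. Read length thus differed between T cells and most B cell libraries, and among the B cell libraries. In B4 Myc replicate 1 the median was 25 bases, as in T cells. In B4 Myc replicate 1, 5.29% of reads were surplus, meaning beyond the first read at their 5′ end. In every other library at most 0.0808% were. Only B4 Myc, B4 IgG and IgG with 10058-F4 had more than 1 library. All intervals are exact 95% intervals and cover counting error only. In bulk chromatin, fewer cells with a bound site and less binding per cell cannot be told apart.

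The T4 Myc reads chose the members, and the values in this paragraph are a description. Of the kept bins, 67 had 0 T4 Myc reads, 147 had 1, 184 had 2 and 255 had 3. All bins with 0, 1 or 2 reads became members, together with 2 of those with 3. Mean T4 Myc was 0.294 RPM in members and 1.90 RPM in other kept bins. The last members admitted were 17:42340001-42340500, with 2 T4 Myc reads, and 9:70746501-70747000 and 15:82046001-82046500, with 3 each. The first bins left out were 2:26724501-26725000, 3:99270001-99270500 and 3:104043001-104043500, each with 3 T4 Myc reads and 22 summed B4 Myc reads. A member and a bin just outside it could therefore hold the same number of T4 Myc reads.

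Members were also weaker sites in B cells, again by values the choice used. They had a median of 10 summed B4 Myc reads (8 to 36), against 14 (8 to 94) in other kept bins. Replicate 1 of B4 Myc averaged 3.0 RPM in members and 4.17 RPM in other kept bins, and replicate 2 averaged 1.38 RPM and 2.29 RPM. Both replicates held at least 4 reads at 182 members (45.5%) and at 1676 other kept bins (72.0%). Replicate 1 gave 61.3% of the B4 Myc reads in members, 57.0% of those in other kept bins and 42.2% of all reads of the pair on chromosomes 1 to 19. In members 9.06% of the replicate 1 reads were surplus reads at a 5′ end, against 6.72% in other kept bins. The part of shared ends in the choice of members was tested only by keeping 1 read per end.

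**Figure D1:**
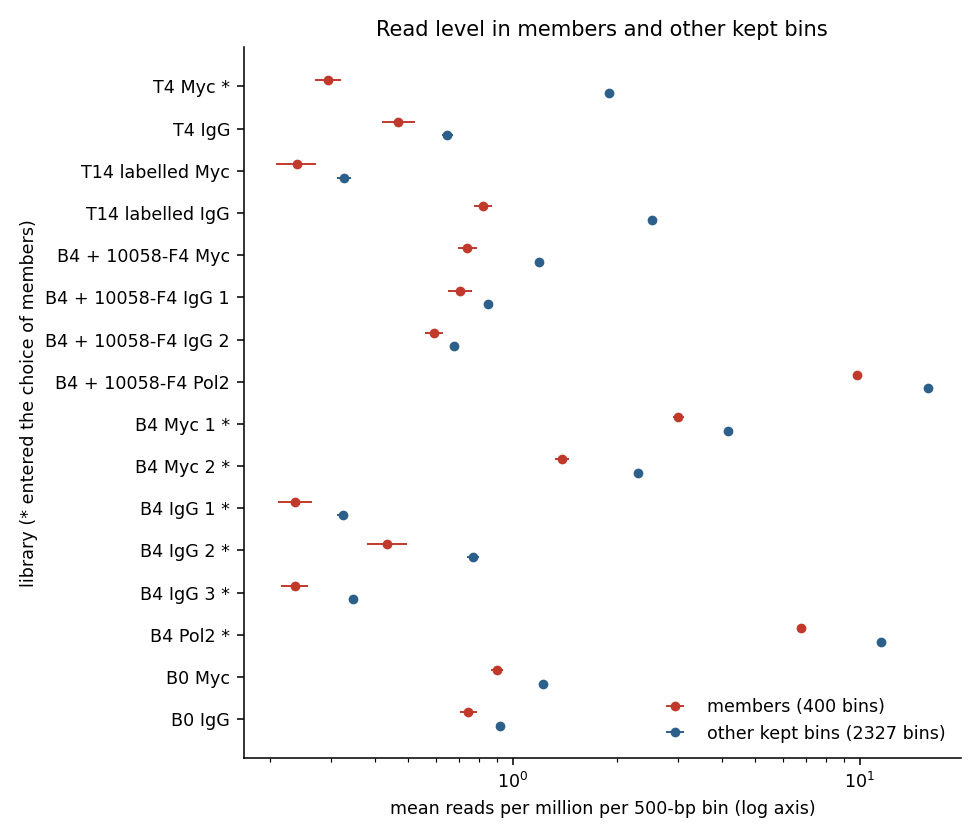
Mean RPM per 500-bp bin (log axis) in the 400 members (red, upper point of each pair) and the 2327 other kept bins (blue), for each library; bars are exact 95% Poisson intervals on summed reads and asterisks mark libraries that entered the choice. Members lie below other kept bins in every library, with 0.294 against 1.90 RPM in T4 Myc and 0.821 against 2.52 RPM in the library labelled T14 IgG.

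The member with the most B4 Myc reads was 9:70746501-70747000. It held 3 T4 Myc reads, against 29 and 7 in the B4 Myc libraries, and 0 reads in each T14 library. Most of its B cell reads came from 1 replicate. At 4:118497501-118498000 there was 1 T4 Myc read, against 16 and 19 in B4 Myc, and B4 IgG held 1, 1 and 8. Here both B4 replicates were high, and Pol2 had 161 reads with 10058-F4 and 39 without. At 9:63529501-63530000 the single T4 Myc read stood against 22 and 3 reads in B4 Myc. In all of these bins each B4 Myc library held more reads than T4 Myc. The choice by few T4 Myc and many B4 Myc reads favoured this, so it is a description. 2:164748001-164748500 had 2 T4 Myc reads, against 17 and 6 in B4 Myc. 19:3943501-3944000 had 2 T4 Myc reads, against 14 and 8 in B4 Myc, and its T4 IgG library had 2 reads as well. 15:82046001-82046500, with 3 T4 Myc reads against 14 and 10 in B4 Myc, had the most Pol2 reads without 10058-F4 of any member (99). It was 1 of 2 members with at least 5 reads in the library labelled T14 Myc, with 5, while the library labelled T14 IgG had 0.

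Around the members the T4 Myc library was higher than inside them. The bins directly before and after the members averaged 0.646 and 0.647 RPM in T4 Myc, against 0.294 RPM in the member bin, 0.456 and 0.499 RPM in the next bins outward and 0.332 and 0.347 RPM at 2000 bp. The choice made the member bin low, so the dip itself is a description, while the neighbours were free. Summed over both neighbours, T4 Myc over T4 IgG was 1.71 (1.55 to 1.88) at members and 1.93 (1.86 to 1.99) at other kept bins. In the bin itself the fold was 0.629 (0.547 to 0.724) in members and 2.93 (2.82 to 3.05) in other kept bins. A neighbour with 8 or more T4 Myc reads stood beside 52 members (13%) and 677 other kept bins (29.1%).

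One member, 13:38666501-38667000, lay on the edge of such a site. It held 0 T4 Myc reads, against 9 and 11 in B4 Myc, but the bin before it held 25 T4 Myc reads, against 28 and 32 in B4 Myc, and 31 reads in the library labelled T14 IgG. A neighbour exceeded the member in B4 Myc reads at 51 members (12.8%) and at 364 other kept bins (15.6%). At the other end, 75 members (18.8%) held at most 3 T4 Myc reads over the bin and both neighbours together. Of these, 38 also held at most 3 reads there in the library labelled T14 IgG, among them 4:128572001-128572500, where both libraries had 0 reads in all 3 bins, against 6 and 2 B4 Myc reads in the bin. Both counts include the T4 Myc reads that chose the members, so they are a description. They were 0 among other kept bins, which all held at least 3 T4 Myc reads in the bin.

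**Figure D2:**
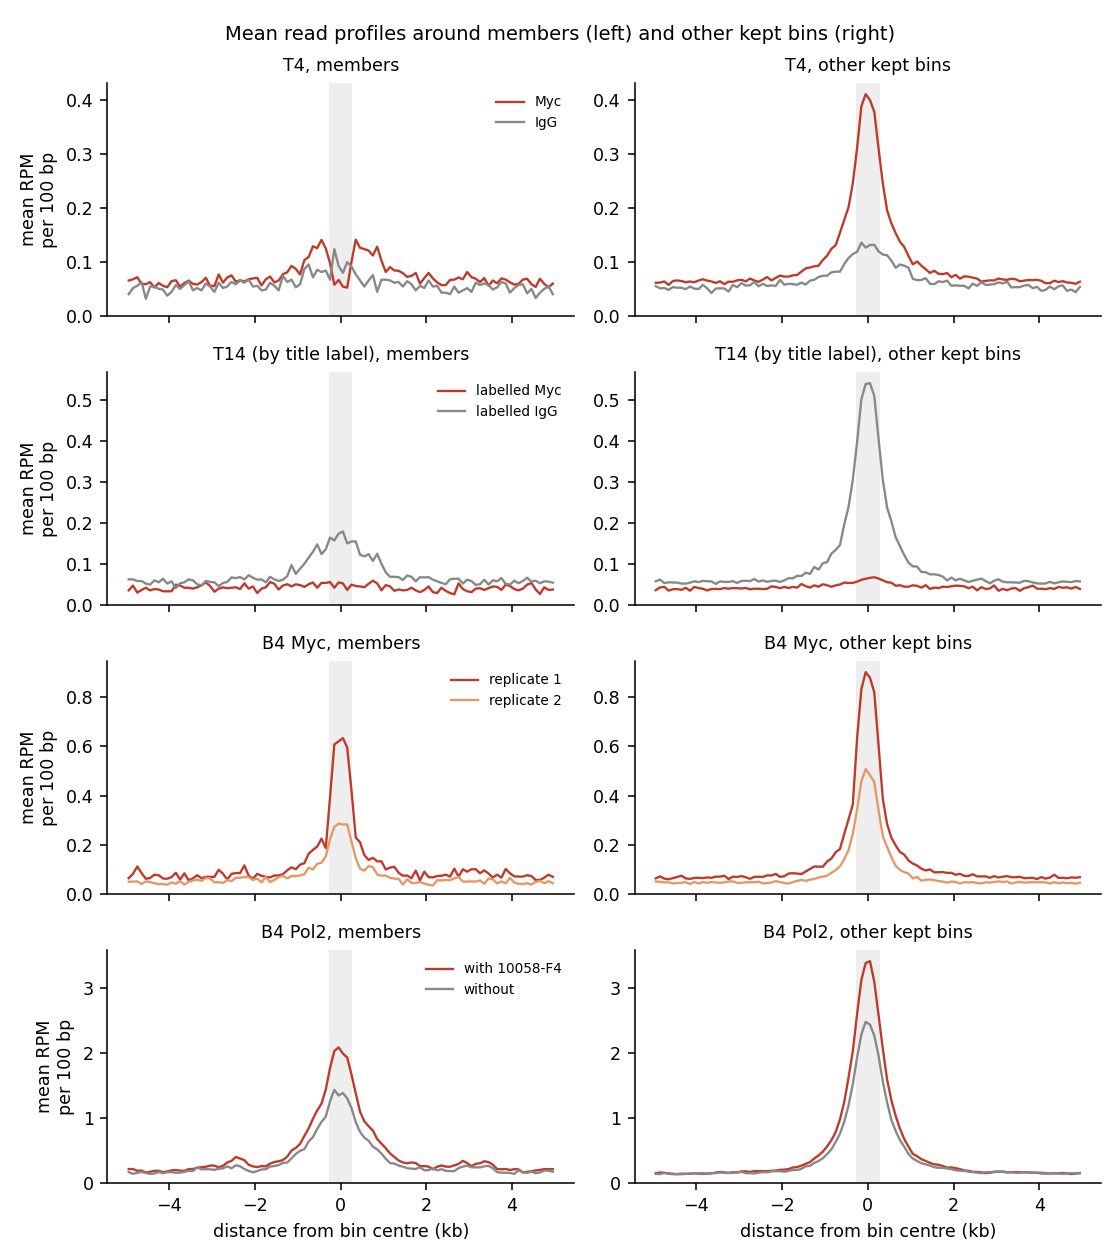
Mean RPM per 100 bp within 5 kb of the bin centre for members (left) and other kept bins (right), with the 500-bp bin shaded; rows are T4 Myc and IgG, the T14 libraries by title label, the B4 Myc replicates and Pol2 with and without 10058-F4. In members the T4 Myc line dips inside the bin (0.294 RPM per bin) between higher neighbours (0.646 and 0.647 RPM), while the library labelled T14 IgG peaks in it. T4 IgG is also higher in the bin (0.468 RPM) than beside it (0.409 and 0.349 RPM).

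At 14 h of ConA, which did not enter the choice, members were again lower than other kept bins. Mean level in the library labelled T14 Myc was 0.238 RPM in members and 0.326 RPM in other kept bins, and in the library labelled T14 IgG it was 0.821 RPM and 2.52 RPM. The ratio of members over other kept bins was 0.326 (0.306 to 0.347) in the library labelled T14 IgG, or −1.62 on the log2 scale. In the 8 remaining libraries outside the choice it lay between 0.620 and 0.879. Its upper bound thus lay under every one of those ratios. Among bins with 8 to 12 summed B4 Myc reads (309 members and 962 others), where the B4 Myc replicates had ratios of 1.06 and 0.826, the ratio in the library labelled T14 IgG was 0.488 (0.451 to 0.528). With 5 to 15 B4 Pol2 reads (236 members and 516 others) it was 0.464 (0.419 to 0.513). Neither group of bins was fully matched. Within the first, the ratio in B4 Pol2 was 0.662. Within the second, it was 0.837 in B4 Pol2 and 0.917 and 0.789 in the B4 Myc replicates.

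Read by read, the library labelled T14 Myc had 0 reads at 256 members (64.0%) and 1322 other kept bins (56.8%), and the library labelled T14 IgG had 0 at 78 (19.5%) and 55 (2.36%). At least 5 reads were found at 2 members in the library labelled T14 Myc and at 70 members (17.5%) in the library labelled T14 IgG, which had them at 1550 other kept bins (66.6%). Among members without a T4 Myc read, 17 also had 0 reads in the library labelled T14 IgG. The members were lower in that library but most had reads in it. Its mean was 0.821 RPM in the member bin, 0.684 and 0.654 RPM in the bins beside it and 0.330 and 0.316 RPM at 2000 bp, so it peaked on the members. Control libraries outside the choice peaked there too. B0 IgG was 0.745 RPM in the bin and 0.566 and 0.534 RPM beside it, and T4 IgG was 0.468, 0.409 and 0.349 RPM. The library labelled T14 Myc did not, with 0.238 RPM in the bin and 0.262 and 0.250 RPM beside it.

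**Figure D3:**
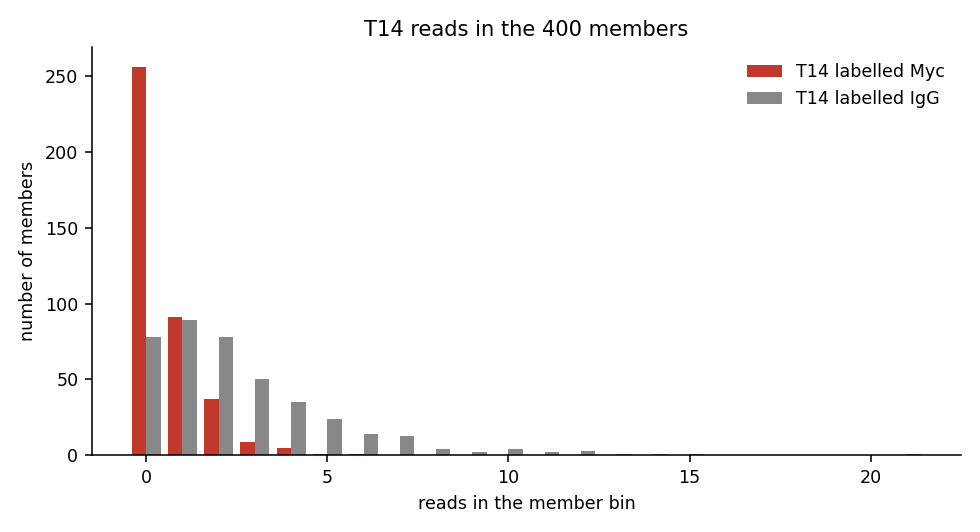
Number of members (vertical axis) by reads in the member bin (horizontal axis) for the libraries labelled T14 Myc (red) and T14 IgG (grey). The library labelled T14 Myc was at 0 reads at 256 of 400 members and the library labelled T14 IgG at 78.

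At T14, the fold of labelled Myc over labelled IgG was 0.290 (0.25 to 0.336) in members and 0.129 (0.123 to 0.136) in other kept bins. A bin in which the library labelled T14 IgG had at least 5 reads and at least 4 times the RPM of the library labelled T14 Myc was counted as past the fold. This held for 48 members (12%, 8.98 to 15.6%) and 1160 other kept bins (49.8%), against 2.69% of 415973 bins with at least 20 reads in the Myc and IgG libraries. In the opposite direction it held for 2 members (0.50%), with a background of 0.196%. The members with the most reads in the library labelled T14 IgG were 15:58912001-58912500 with 21, 8:26667001-26667500 with 15, 6:146591501-146592000 with 14, 9:37238501-37239000 with 13 and 1:99491501-99492000 with 12. Each had 0 or 1 read in the library labelled T14 Myc. T4 Myc had 1 or 2 reads in these bins, and in the bin before it had 8 at the first, 6 at the second and 7 at the third.

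Over all kept bins, the library labelled T14 IgG increased with the T4 Myc reads, from members upward. It averaged 0.504 RPM (0.413 to 0.609) in the 67 bins with 0 T4 Myc reads, 0.742 RPM (0.666 to 0.825) in the 147 with 1 and 1.01 RPM (0.928 to 1.09) in the 184 with 2. These 3 groups of members differed beyond counting error, and bins with 3 T4 Myc reads averaged 1.25 RPM (1.17 to 1.33). Bins with 13 or more averaged 5.07 RPM (4.94 to 5.20). Over the same groups the library labelled T14 Myc lay between 0.227 and 0.377 RPM. T4 IgG increased from 0.370 RPM (0.269 to 0.497) with 0 T4 Myc reads to 0.748 RPM (0.680 to 0.821) with 10 to 12. With 13 or more it was 0.660 RPM. Other libraries also increased. In bins with 0 and with 13 or more T4 Myc reads, Pol2 with 10058-F4 averaged 7.76 and 19.6 RPM, Myc with 10058-F4 0.581 and 1.65 RPM, B0 Myc 0.713 and 1.62 RPM and B4 Myc replicate 1 2.80 and 7.11 RPM. Among bins with 8 to 12 summed B4 Myc reads, the library labelled T14 IgG averaged 0.513 RPM with 0 T4 Myc reads and 2.94 RPM with 13 or more (28 bins).

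**Figure D4:**
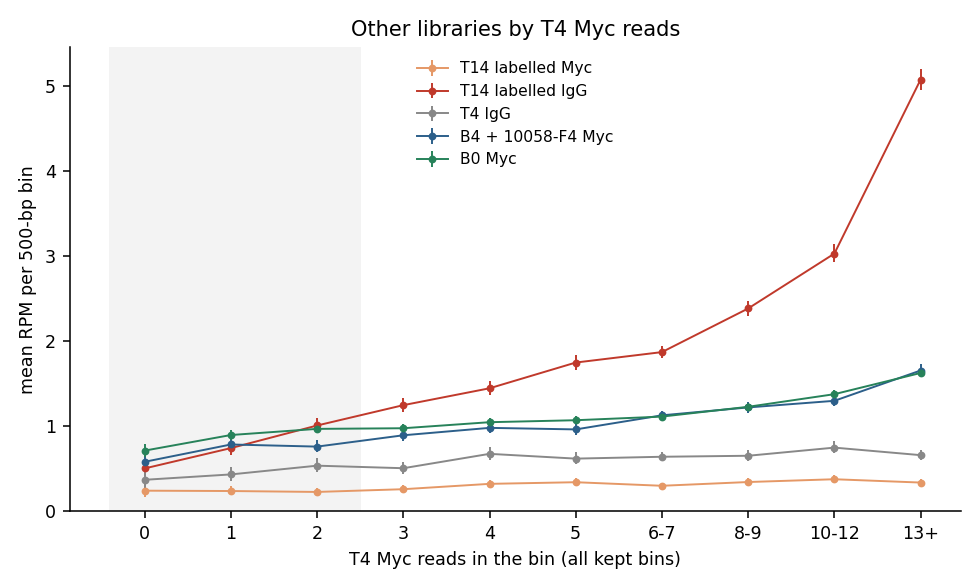
Mean RPM per bin (vertical axis, exact 95% Poisson intervals) over all kept bins grouped by T4 Myc reads (horizontal axis); the shaded groups of 0, 1 and 2 reads hold all members except 2 with 3 reads. The library labelled T14 IgG is at 0.504, 0.742 and 1.01 RPM in the shaded groups and reaches 5.07 RPM in bins with 13 or more T4 Myc reads, while the library labelled T14 Myc stays at or below 0.377 RPM.

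The T4 IgG library averaged 0.468 RPM (0.419 to 0.521) in members and 0.648 RPM in other kept bins, a ratio of 0.722 (0.642 to 0.810). It had 0 reads at 220 members (55.0%) and at 962 other kept bins (41.3%). The T cell control was thus lower in members as well. At 6 members (1.5%) and 34 other kept bins (1.46%) T4 IgG had at least 5 reads and 4 times the RPM of the library labelled T14 Myc, with a background of 0.355%.

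In B cells given LPS with 10058-F4, the Myc library was close to its control at the members. It averaged 0.739 RPM in members and 1.19 RPM in other kept bins. Its IgG libraries averaged 0.705 and 0.593 RPM in members and 0.850 and 0.675 RPM in other kept bins. The fold of Myc over IgG was 1.18 (1.09 to 1.28) in members and 1.64 (1.60 to 1.69) in other kept bins, so members were lower and the intervals did not overlap. Without 10058-F4, where Myc and IgG chose the bins, the fold in members was 11.5 in replicate 1 and 5.29 in replicate 2. That gap is not a test of the compound, because only the libraries without it chose the bins. With 10058-F4, 8 members (2%) and 128 other kept bins (5.50%) passed 4 times IgG with at least 5 reads, with a background of 1.29%.

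The members with the most Myc reads with 10058-F4 were 15:58912001-58912500 with 13, 1:75201001-75201500 with 11, 9:114601501-114602000 with 10, 12:59984501-59985000 with 9 and 15:96527501-96528000 with 9. The first of these was also highest in the library labelled T14 IgG. IgG with 10058-F4 had 0 and 4 reads at the first, 1 and 3 at the second, 4 and 5 at the third, 1 and 5 at the fourth, and 0 and 1 at the last.

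In untreated B cells the members were lower than other kept bins by a ratio of 0.735 in Myc and 0.810 in IgG. B0 Myc averaged 0.900 RPM in members and 1.22 RPM in other kept bins, and B0 IgG averaged 0.745 RPM and 0.919 RPM. Myc over IgG was 1.21 (1.13 to 1.29) in members and 1.33 (1.30 to 1.37) in other kept bins. The 4-fold mark was passed at 21 members (5.25%) and 143 other kept bins (6.15%), near the background of 5.82%. B0 Myc had 0 reads at 4 members, and it was the deepest library.

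Pol2 was present at nearly all members, and its level with 10058-F4 followed the level without it. The Pol2 library with 10058-F4 averaged 9.82 RPM in members and 15.7 RPM in other kept bins, and the library without it, which entered the choice, averaged 6.77 RPM and 11.5 RPM. Pol2 over IgG with 10058-F4 was 15.7 (15 to 16.5) in members and 21.7 (21.3 to 22.1) in other kept bins. At least 4 times IgG with 5 reads was found at 354 members (88.5%) and 2264 other kept bins (97.3%), with a background of 11.9%. The choice asked for 5 B4 Pol2 reads, so nothing is read from this count against the background.

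With 10058-F4 the summed Pol2 RPM was 1.45 times (1.41 to 1.49) that without it in members, and 1.37 times (1.35 to 1.38) in other kept bins. There was 1 library on each side, so the difference has no replicate check, and only the library without 10058-F4 entered the choice. Pol2 RPM was higher with 10058-F4 at 287 members (71.8%) and at 1798 other kept bins (77.3%), so the share of bins ran the other way from the fold of sums. The median log2 ratio was 0.46 (0.37 to 0.53) in members and 0.42 (0.40 to 0.45) in other kept bins, with overlapping intervals. Among members the ratio was at least 2-fold at 83 and at most 0.5 times at 31. The same counts were not made in other kept bins or over all bins, so nothing particular to members is read from them. Across the 400 members the Spearman correlation of both Pol2 libraries was 0.80, a description over bins that share their libraries. Over the same bins the library labelled T14 IgG correlated with Pol2 with 10058-F4 at 0.29 and with Myc with 10058-F4 at 0.23.

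**Figure D5:**
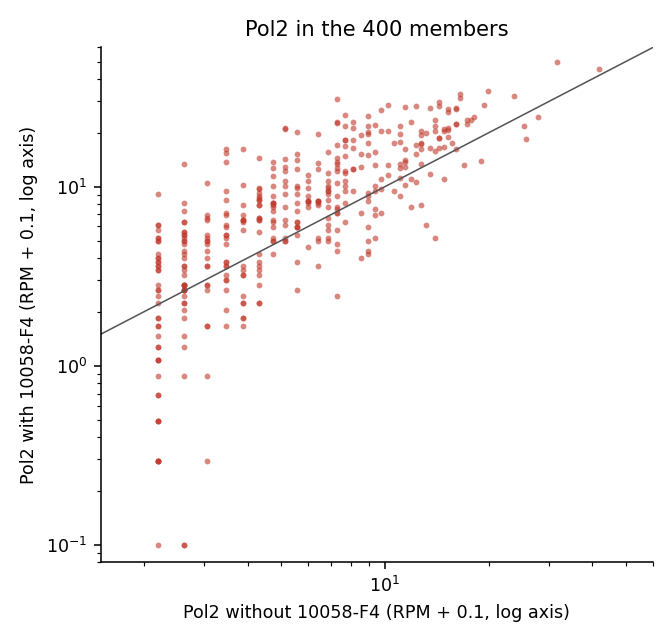
Pol2 with 10058-F4 (vertical axis) against Pol2 without it (horizontal axis) in each of the 400 members, in RPM with 0.1 added on log axes; the line marks equal values. At 287 members the value with 10058-F4 is the higher, and 3 members lie at 0 reads with it.

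The most Pol2 reads with 10058-F4 were found at 9:114601501-114602000, with 255 against 75 without it. Next was 15:82046001-82046500, with 232 reads with the compound and 99 without it. 14:101869001-101869500 had 175 reads with the compound and 47 without it. The list ended with 16:91295501-91296000, at 168 and 39 reads, and 15:82057001-82057500, at 165 and 56 reads. The library with 10058-F4 was the deeper, and the RPM ratios at these 5 were 1.09 to 2.0. The lowest ratios rested on few reads. Pol2 had 0 reads with 10058-F4 at 17:45636001-45636500, against 6 without it, at 4:128572001-128572500, against 6, and at 6:8172001-8172500, against 5. It had 1 read at 10:98740501-98741000, against 7, and 1 at 11:119549501-119550000, against 5. A count of 0 in the library with 10058-F4 was taken to allow up to 3 reads, or 0.585 RPM. This is a fixed floor and not an exact interval.

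Pol2 was less often centred on members than on other kept bins, both with and without 10058-F4. As a description from values that chose the bins, another kept bin lay directly beside 42 members (10.5%) and 459 other kept bins (19.7%). B4 Myc reads exceeded those of each of the 2 bins on either side at 80.0% of members and 79.9% of other kept bins. For Pol2 with 10058-F4 this share was 51.8% (46.7 to 56.7%) and 64.1% (62.1 to 66.0%), and for the library labelled T14 IgG it was 24.3% and 55.4%. For Pol2 without 10058-F4, which entered the choice, it was 50.8% and 64.2%. Members held fewer reads in these libraries. Medians were 39 against 76 for Pol2 with 10058-F4, 13 against 25 without it and 2 against 6 in the library labelled T14 IgG. Such shares can depend on read number, and whether they differ at equal read numbers was not tested. The share of kept bins that were members ranged from 9.41% on chromosome 13 (8 of 85) to 23.7% on chromosome 1 (33 of 139), and the intervals of these extremes were 4.15 to 17.7% and 16.9 to 31.7%. The 13 members on chromosome 18 were counted and are not shown as examples.

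Tests across all bins called no member. limma with voom weights was fitted to the 14 Myc and IgG libraries over 415973 bins, of which 387 were members and 13 members did not pass the filter of 20 reads. It tested Myc over IgG with 10058-F4, Myc over IgG in B0, the T14 library labelled Myc over that labelled IgG, and T4 IgG against the IgG libraries of B0 and of 10058-F4. At an adjusted p (Benjamini-Hochberg) below 0.05, 0 members were higher or lower in any of the 4, with a background of 0.0% in each direction except 0.000481% (2 bins) higher in T4 IgG. The smallest adjusted p of a member in the T14 comparison was 0.806. Every comparison had at least 1 group of a single library, which is assumed to vary like the groups with replicates (4 residual degrees of freedom).

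At an unadjusted p below 0.05 the T14 comparison had 1 member higher and 19 members lower in the library labelled Myc (0.258% and 4.91% of those tested), with backgrounds of 0.358% and 0.741%, and 725 of 2323 other kept bins were lower (31.2%). With 10058-F4, 7 members were higher and 1 lower in Myc (background 0.998% and 0.703%), and in B0 4 were higher and 1 lower (1.21% and 0.78%). T4 IgG was higher at 7 members and lower at 1 (1.8% and 0.0212%). limma-trend called 0 members too. At an unadjusted p below 0.05 it had 5 members higher and 4 lower with 10058-F4 (background 0.558% and 1.14%) and 3 and 1 in B0 (0.245% and 0.657%). It had 1 and 19 at T14 (0.34% and 0.763%), and 5 and 4 for T4 IgG (1.22% and 0.0558%). The median log2 fold of the T14 comparison was −1.15 in members, −2.37 in other kept bins and −0.30 over all tested bins. With 10058-F4 it was 0.22 in members, 0.72 in other kept bins and 0.06 over all bins, and in B0 it was 0.22, 0.33 and −0.01.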

How the data were processed

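The deposited files list aligned reads, 1 line each, with chromosome, start, end, read length and strand. They hold no other unit, and per the submitters' processing notes CASAVA 1.0, Bowtie 0.12.7 and mm8 were used, their settings being not given in the sources used here. Coordinates may be off by 1 base, since the files do not state if they start at 0. Reads were counted per 500-bp bin by midpoint with Python 3.11.15, numpy 2.4.6, pandas 2.3.3 and scipy 1.17.1. Depth was 1278471 to 7433203 reads per library. Folds are ratios of summed RPM with conditional binomial intervals, means have Poisson intervals and shares have Clopper-Pearson intervals. limma 3.58.1 in R 4.3.3 was run with voom weights on 10 groups. No p-value was computed for a comparison of values that chose the members. B4 Myc and B4 IgG, which entered the choice, were among the groups that gave the spread between replicates. Their reads and those of T4 Myc also counted towards the filter of 20 reads. As separate animals are not stated, p-values reflect the spread between libraries. The members and lists were chosen with earlier results of these data known. Named regions were those with the most B4 Myc reads, the bins at the threshold, and the extremes of the library labelled T14 IgG, Myc with 10058-F4 and Pol2. Genes and sequences were not assigned, since no mm8 annotation or genome was used here. Alternatives reapplied the choice of members with other reads, grids and thresholds, or changed the fit.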

Additional observations from a re-analysis of the deposited data

Results flagged for a closer look

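The fold over control in members lay below 1 in 1 state and above 1 in 2 others. At T14, labelled Myc over labelled IgG was 0.290 (0.25 to 0.336) in members, below 1, while Myc over IgG was 1.18 (1.09 to 1.28) in LPS-treated B cells with 10058-F4 and 1.21 (1.13 to 1.29) in B0. Other kept bins showed the same pattern, with 0.129 at T14, 1.64 with 10058-F4 and 1.33 in B0. The difference between states was not tested. For the T14 pair, titles and deposited file names give opposite antibodies. With the labels exchanged the T14 fold would be 3.45 (2.98 to 4.0) in members and 7.72 (7.36 to 8.11) in other kept bins.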

How the results depend on the processing

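Membership depended strongly on the choices. The lower level in the library labelled T14 IgG kept its direction under all alternatives run, many of them on newly chosen members. Of the 400 members, the choice repeated with 1 read per 5′ end found 331 again, 5′ ends moved 75 bases 240, bins shifted by 250 bases 94, a minimum of 12 B4 Myc reads 114, 8 times IgG 68 and 0.5 RPM added to IgG 15. Kept bins numbered 1645, 591 and 520 under the last 3. Each repeat again took 400 bins, so with 591 or 520 kept bins most became members. Ratios from such repeats describe largely other bins than the members above. Leaving out each B4 Myc or B4 IgG replicate in turn kept 1821 to 6454 bins and found 82 to 295 members again; without B4 Myc replicate 2 it was 82, without B4 Myc replicate 1 126 and without B4 IgG replicate 3 241. By definition, the stricter minimum and folds removed members that fell below them, and 309 members held 8 to 12 summed B4 Myc reads. For the other alternatives the cause was not tested.

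The log2 ratios of members over other kept bins that moved beyond counting error were as follows, against −1.62 for the library labelled T14 IgG, −0.45 for the library labelled T14 Myc, −0.47 for T4 IgG, −0.69 for Myc and −0.68 for Pol2 with 10058-F4, −0.27 and −0.19 for IgG with 10058-F4, −0.44 for B0 Myc and −0.30 for B0 IgG. With 12 B4 Myc reads they were −1.04 (T14 labelled IgG), −0.21 (T14 labelled Myc), −0.19 (T4 IgG), −0.38 (Myc with 10058-F4), −0.15 (Pol2 with 10058-F4), 0.0029 and −0.052 (IgG with 10058-F4, the first reversed), −0.24 (B0 Myc) and −0.090 (B0 IgG). With 0.5 RPM added they were −1.14 (T14 labelled IgG), 0.33 (T14 labelled Myc, reversed), −0.17 (T4 IgG), −0.19 (Pol2), −0.14 (IgG with 10058-F4 replicate 1) and −0.55 (B0 Myc). With 8 times IgG they were −0.22 (T14 labelled Myc), −0.28 (T4 IgG), −0.82 (Myc) and −0.66 (Pol2) with 10058-F4, −0.36 (IgG with 10058-F4 replicate 2) and −0.67 (B0 Myc). With 1 read per 5′ end they were −1.33 (T14 labelled IgG), −0.54 (Myc), −0.52 (Pol2) and −0.33 (B0 Myc). With 5′ ends moved they were −1.50 (T14 labelled IgG), −0.62 (Pol2) and −0.51 (B0 Myc). With shifted bins they were −0.76 (Pol2), −0.42 and −0.33 (IgG with 10058-F4), −0.52 (B0 Myc) and −0.48 (B0 IgG). As differences of medians they were −1.45 (T14 labelled IgG), −0.89 (Myc), −0.95 (Pol2) and −0.53 (B0 Myc). They were 0 for the library labelled T14 Myc, B0 IgG and both IgG libraries with 10058-F4. For T4 IgG the difference was −2.73, from medians of 0 and 1 read, and its size depended on the 0.1 RPM added. At 8 to 12 B4 Myc reads the log2 ratios were −1.03 (T14 labelled IgG), −0.49 (Myc), −0.62 (Pol2) and −0.28 (B0 Myc). At 5 to 15 B4 Pol2 reads, an alternative chosen after seeing the data, they were −1.11 (T14 labelled IgG), −0.24 (T14 labelled Myc), −0.50 (Myc), −0.44 (Pol2), −0.090 (IgG with 10058-F4 replicate 1), −0.25 (B0 Myc) and −0.17 (B0 IgG).

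Leaving out a B4 Myc or B4 IgG replicate gave −1.80 to −1.42 for the library labelled T14 IgG, −0.60 to −0.32 for the library labelled T14 Myc, −0.81 to −0.27 for T4 IgG, −0.72 to −0.46 for Myc and −1.09 to −0.55 for Pol2 with 10058-F4, −0.44 to −0.072 and −0.32 to −0.12 for its IgG libraries, −0.56 to −0.37 for B0 Myc and −0.56 to −0.17 for B0 IgG.

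Median log2 enrichment in members was 0 in T4, −2.05 at T14, 0.089 with 10058-F4, 3.16 and 1.97 in the B4 Myc replicates and 0.33 in B0. In 1500-bp windows it was 0.47 in T4, 0.11 with 10058-F4 and 2.01 and 1.15 in B4. With 1 RPM added it was −0.40 at T14, 0.027 with 10058-F4 and 1.60 and 0.84 in B4. With IgG replicate 1 alone it was 0.29 with 10058-F4 and 3.36 in B4 Myc replicate 1, with IgG replicate 2 alone 0.032 with 10058-F4 and 4.22 and 2.90 in B4, and with B4 IgG replicate 3 alone 3.30 and 2.24. With library size outside kept bins it was −2.06 at T14.

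limma called 0 members in all 4 comparisons under all 15 other fits. Its 2 bins higher in T4 IgG became 11 in 1500-bp windows, 4 with at least 40 reads, 0 with at least 1 or 10 reads, TMM, background scaling or limma-trend, and 0 to 3 without 1 replicate. With a replicate block for the B4 title pairs, 2 bins were higher and 0 members were called. Deviations of the title pairs correlated at 0.0292. With few reads per bin, counting error can keep this value low, so it cannot decide whether the libraries were paired. Each title pair also shared its range of read lengths, 24 to 30 bases in the first pair and 45 in the repeat pair.

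Single libraries, 0 to 3 T4 Myc reads per member and 4 residual degrees of freedom limit what these data can show per bin.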
